A study of Mus musculus with 20 samples.

Results

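This account covers 10 genes of extracellular serine proteolysis in the mouse brain, which were taken by symbol from the counts of all 20 libraries among the 24421 genes counted. They are 3 protease-activated receptors (F2r, F2rl1 and F2rl2), 4 serine proteases (Prss23, Prss12, Plat and Klk8) and 3 members of the serpin family (Serpine2, Serpini1 and Serpinf1). The question was whether their transcripts differ when the amyloid precursor protein family is lost, since App and Aplp2 have splice forms that carry a Kunitz protease inhibitor domain. All 10 symbols were found in every library.

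Poly-A RNA of 2 forebrain regions, neocortex and hippocampus, was sequenced from 3-month-old cTKO and control mice, with 5 libraries in each of the 4 groups. RNA was extracted with a different kit in each region, so kit and region cannot be told apart. By the methods of the study, mice of both sexes on a hybrid of C57BL/6J and 129 carried homozygous floxed alleles of App, Aplp1 and Aplp2, and cTKO mice also carried Camk2a-Cre, a transgene that drives Cre recombinase in forebrain excitatory neurons after birth. The controls thus carried the floxed alleles without Cre, although the sample labels call them wild type and the mutants APP/APLP1/APLP2 -/-. Interneurons, glia and vessels keep the 3 genes in this model, and in bulk tissue fewer cells of a type and less RNA per cell cannot be told apart.

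Total counts ranged from 12169474 to 24842764 in the neocortex and from 19552353 to 25331954 in the hippocampus. Levels are given as CPM, the counts of a gene relative to all counts of its library, with library sizes scaled by the TMM method, and 3 counts, taken as the smallest level a library could show, corresponded to between 0.118 and 0.247 CPM. For App, Aplp1 and Aplp2, no cTKO library reached the lowest control of its region, with log2 fold changes between -2.10 and -1.25. Summed markers of the dentate gyrus (3 genes) ranged from 174 to 314 CPM in hippocampal libraries and from 13.8 to 22.02 CPM in neocortical ones. Library 5 of the cTKO neocortex and library 4 of the cTKO hippocampus held transcripts of embryonic tissue. H19, a fetal noncoding RNA, was at 322 and 193 CPM in them and between 0.49 and 2.15 CPM in the other 18 libraries, and the embryonic globin Hbb-y was at 195 and 120 CPM. Of the 9 markers listed for embryonic tissue, Hoxa9, Hoxc10 and Hoxd9 stayed under 3 counts in every library. Quasi-likelihood results of the 10 genes that rest on these libraries are given with and without them. The permutation tests, the other tests and the counts over gene and marker lists include both libraries.

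Serine proteases cut proteins outside the cell, and serpins trap many of them irreversibly. Protease-activated receptors are G protein-coupled receptors that are switched on when a protease clips their extracellular end and exposes a tethered ligand. In the brain, thrombin acts on the receptor encoded by F2r, tissue plasminogen activator (Plat), neurotrypsin (Prss12) and neuropsin (Klk8) cleave matrix and synaptic proteins, and glia-derived nexin (Serpine2) and neuroserpin (Serpini1) inhibit thrombin or tissue plasminogen activator. Serpinf1 encodes pigment epithelium-derived factor, a secreted serpin that does not inhibit proteases and has neurotrophic and anti-angiogenic activity. Prss23 encodes a secreted serine protease whose substrates are poorly known.

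The 3 receptor genes lie together on chromosome 13 (GRCm38, RefSeq). F2rl1 occupies 95511718 to 95525240 and F2r 95601780 to 95618466, both on the minus strand, and F2rl2 occupies 95696920 to 95702768 on the plus strand. F2rl2 lies wholly inside Iqgap2, a minus-strand gene from 95627177 to 95892280, and shares 0 exonic bases with it, so that it is intronic to that gene. Serpinf1 is on chromosome 11 from 75410029 to 75422623 on the minus strand, 9113 bases from Serpinf2. Prss23 is on chromosome 7 from 89507783 to 89527187 on the minus strand. Sequence 250 to 101 bases before the RefSeq start is shown for F2rl2 and Serpinf1, whose transcripts rose in the cTKO neocortex, and for F2r, the receptor neighbour of F2rl2. It is written 5′ to 3′ on the strand of each gene, and capitals mark matches to the motifs named next.
F2rl2, chr13:95696670-95696819, plus strand: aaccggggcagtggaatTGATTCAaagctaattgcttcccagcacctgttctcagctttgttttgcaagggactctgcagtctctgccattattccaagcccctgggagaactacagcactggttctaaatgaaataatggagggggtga
F2r, chr13:95618567-95618716, minus strand: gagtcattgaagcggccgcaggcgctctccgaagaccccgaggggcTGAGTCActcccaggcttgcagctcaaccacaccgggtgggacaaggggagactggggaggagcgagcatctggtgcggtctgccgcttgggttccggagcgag
Serpinf1, chr11:75422724-75422873, minus strand: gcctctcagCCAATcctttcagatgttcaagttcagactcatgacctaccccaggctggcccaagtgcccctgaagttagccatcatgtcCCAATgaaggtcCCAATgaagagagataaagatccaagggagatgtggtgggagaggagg

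The sequences are from the RefSeq promoter table of GRCm38.p6, which held 8 of the 10 genes, and they end before the starts of the GENCODE M21 models, which lie 67, 21 and 78 bases ahead of the RefSeq starts of F2rl2, F2r and Serpinf1. Windows of the same 150 bases were searched on both strands for the cyclic AMP response element (TGACGTCA), an AP-1-like pattern (TGANTCA, with any base at N), an E-box (CACGTG), the GC box (GGGCGG), the CCAAT box (CCAAT) and a TATA element (TATAAA). The AP-1-like letters were in the window of F2rl2, starting 233 bases before the start, in that of F2r at 204 bases and in 2 overlapping windows of Prss23, of the 7 that the table held, and they were in 3.997% of all 32851 windows. The match read TGATTCA in F2rl2, TGAGTCA in F2r and TGACTCA in Prss23, so the middle base differed. The CCAAT letters occurred 3 times in the window of Serpinf1 and in 19.98% of all windows. None of the 6 motifs was found in the windows of Prss12, Klk8 and Serpini1, and the GC box was in the window of Serpine2 and in 1 window of Prss23. The receptor genes differed in base composition, with 11 CpG in the window of F2r and 1 in that of F2rl2, against a median of 3 over all windows. These matches describe letters only.

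The order of the genes by level per exonic length was led by the inhibitory serpins in controls of both regions. In the control neocortex, Serpini1 was at 36.5 ± 3.73 CPM per kb (SD, n = 5) and Serpine2 at 15.7 ± 0.627 CPM per kb (SD, n = 5), and their ranges did not overlap. Prss12 followed at 9.37 ± 1.10 CPM per kb (SD, n = 5). Prss23, Plat and Serpinf1 came next with means of 4.81, 4.44 and 4.12 CPM per kb and with overlapping ranges between neighbours in the order. F2r was at 1.75, F2rl2 at 1.25 and Klk8 at 0.745 CPM per kb, again with overlap between neighbours. F2rl1 was lowest at 0.144 CPM per kb, apart from Klk8.

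**Figure D1:**
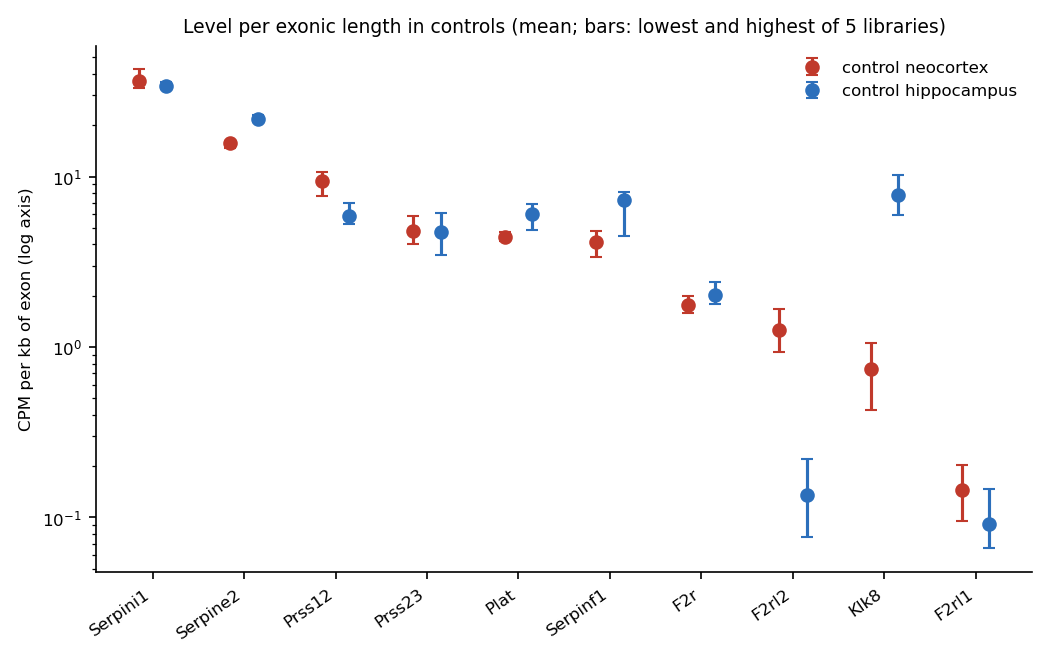
Mean level per kb of exon in CPM (log axis) of the 10 genes in the 5 control libraries of the neocortex (red) and of the hippocampus (blue), with bars from the lowest to the highest library. Serpini1 and Serpine2 led both regions, F2rl2 was at 1.25 in the neocortex and 0.135 in the hippocampus, and Klk8 was at 0.745 and 7.76.

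The hippocampal order differed mainly through Klk8 and F2rl2. In the control hippocampus Serpini1 (34.0 CPM per kb) and Serpine2 (21.7) again stood first, but Klk8 came next at 7.76 ± 2.05 CPM per kb (SD, n = 5). Serpinf1, Plat and Prss12 followed at 7.26, 6.04 and 5.87 CPM per kb, and from Klk8 down to Prss23 (4.74) each neighbour in the order overlapped the next. F2rl2 stood near the end of the order at 0.135 CPM per kb and overlapped F2rl1 at 0.0913.

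The regions were compared within controls. Klk8 was at 0.862, 1.19, 0.661, 1.63 and 1.39 CPM in control neocortical libraries 1 to 5 and at 9.40, 10.5, 14.96, 15.7 and 9.12 CPM in the hippocampal ones. The regions did not overlap, and the log2 difference was 3.38 (standard error 0.230), or 10.4-fold higher in the hippocampus (FDR 9.5e-09, edgeR quasi-likelihood test). The neocortical levels of Klk8 rested on 8 to 25 counts, and the size of its fold rests on them. F2rl2 was at 2.54, 2.32, 3.72, 4.18 and 2.92 CPM in the control neocortex and at 0.553, 0.514, 0.226, 0.192 and 0.210 CPM in the control hippocampus, where these levels rested on 4 to 12 counts. It was 8.99-fold higher in the neocortex (log2 difference -3.17, standard error 0.307, FDR 4.5e-07), and it passed the filter on low counts through the neocortex alone. Fitted without a filter the log2 difference was -3.15 (FDR 9.0e-08 by edgeR), and the size of the fold rests on these few hippocampal counts. Prss12 was lower in the hippocampus by a log2 difference of -0.69 (standard error 0.096, FDR 1.9e-05). Serpinf1, Serpine2 and Plat were higher there, with log2 differences of 0.82, 0.46 and 0.44 and FDRs of 0.00026, 9.7e-07 and 0.00035. The regions did not overlap for Plat, Klk8 and Serpine2 (higher in hippocampus, as 22.3% of all genes were) and for F2rl2 and Prss12 (lower, as 21.7% were). For Serpinf1 they overlapped through control hippocampus library 5 at 10.6 CPM, beside 17.9 to 19.1 CPM in the other 4. F2r (log2 difference 0.20, FDR 0.134), Serpini1 (-0.11, FDR 0.155) and Prss23 (-0.02, FDR 0.909) did not pass the test. In all, 6 of the 9 genes tested were called, 4 higher and 2 lower, beside 59.1% of all 13832 genes tested, 29.8% higher and 29.2% lower. Regional differences were thus about as frequent among all genes. The count includes F2rl2, which entered the test through the neocortex alone.

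The main finding of the genotype comparison was a higher level of F2rl2 and Serpinf1 in the cTKO neocortex. F2rl2, the receptor known as PAR3, which thrombin cleaves, was counted at 9.12, 5.43, 8.69, 8.70 and 5.11 CPM in cTKO libraries 1 to 5 and at 2.54, 2.32, 3.72, 4.18 and 2.92 CPM in controls. All 5 cTKO libraries exceeded all 5 controls, with means of 7.41 ± 1.97 and 3.14 ± 0.789 CPM (SD, n = 5 each). The log2 fold change was 1.26 (standard error 0.217, 95% interval 0.80 to 1.73, FDR 0.0352 from edgeR's quasi-likelihood test over all genes), or 2.40-fold. Serpinf1 was at 17.9, 16.6, 13.1, 17.2 and 13.8 CPM in cTKO libraries and at 8.002, 10.6, 9.26, 9.41 and 11.3 CPM in controls, again with no overlap, with all cTKO above all control libraries in 0.795% of genes tested. Its log2 fold change was 0.71 (standard error 0.121, 95% interval 0.45 to 0.97, FDR 0.0352, edgeR), or 1.64-fold. Each of these differences gave p = 0.00794 in a two-sided exact permutation test of log2 CPM, the smallest that 252 splits of 5 against 5 libraries allow; 20 such tests were run for the 10 genes in both regions and are not adjusted.

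These were 2 of 9 genes tested, beside 0.188% of all 13843 genes called in the cTKO neocortex in either direction and 0.0867% called higher. By an unadjusted p below 0.05 in that edgeR fit, 4 of the 9 were higher and 0 lower, beside 5.57% and 4.86% of all genes. The members were chosen with earlier results of these data known, so these shares are no test of an excess. The FDR calls of F2rl2 and Serpinf1 were close to the threshold. In 1 fit of all 20 libraries both were lost, with an FDR of 0.240 for F2rl2 and 0.202 for Serpinf1, and with the replicate number as a block Serpinf1 was lost (FDR 0.0823) and F2rl2 was not (FDR 0.0301). DESeq2 and edgeR's exact and likelihood ratio tests called both. Both calls held without cTKO library 3 and without cTKO library 5, which held the embryonic transcripts, where FDRs lay between 0.00608 and 0.0296. With any of the other 8 libraries left out (cTKO 1, 2 and 4 and each control), neither passed, with FDRs from 0.052 to 0.135, while the log2 fold change stayed between 1.17 and 1.39 for F2rl2 and between 0.64 and 0.77 for Serpinf1.

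Prss23 was also higher in most cTKO neocortical libraries, at 38.8, 22.7, 24.6, 31.5 and 20.6 CPM beside 16.8, 15.2, 17.4, 22.03 and 19.04 CPM in controls. Libraries 1 to 4 were above every control and library 5 was within their range. The log2 fold change was 0.62 (standard error 0.160) and missed the threshold (FDR 0.155, edgeR quasi-likelihood test). The permutation p was 0.0159 (exact, two-sided), and edgeR's exact test and DESeq2 called the gene with FDRs of 0.0275 and 0.0206, where 1.18% and 1.6% of all genes were called. Without cTKO library 5 the quasi-likelihood FDR was 0.0435, the only omission of a library after which it passed.

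F2r, the main thrombin receptor of the family, differed mostly through 1 library. It was at 6.32, 6.36, 7.31, 7.75 and 15.9 CPM in the cTKO neocortex and at 5.75, 6.20, 5.29, 5.42 and 6.60 CPM in controls. Of the cTKO libraries 3 were above every control, with a permutation p of 0.0317 (exact, two-sided). The highest value was in library 5, the one with embryonic transcripts, and the log2 fold change of 0.57 (standard error 0.234, FDR 0.412) became 0.25 without it (standard error 0.121, FDR 0.451). In the same library Serpinh1, the collagen chaperone among the serpins, was at 110.5 CPM beside 13.3 to 17.9 CPM in the other 4. The part of the embryonic material in F2r was not tested beyond this omission.

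The other genes showed small differences in the neocortex. Plat (log2 fold change 0.06), Prss12 (0.12) and Klk8 (0.26) among the proteases had FDRs from 0.789 to 0.886, with 95% intervals of -0.14 to 0.25, -0.15 to 0.40 and -0.33 to 0.84. The inhibitory serpins were the most tightly measured. Serpine2 had a log2 fold change of -0.01 (95% interval -0.16 to 0.14) and Serpini1 one of -0.11 (-0.27 to 0.04). F2rl1, the receptor for trypsin-like proteases, was at 1 to 22 counts per library over both regions (0.041 to 0.99 CPM) and did not pass the filter. Its exact permutation p (two-sided) was 0.484 for neocortical and 0.81 for hippocampal libraries, and fitted without a filter its log2 fold change was 0.54 (95% interval -0.46 to 1.53, FDR 0.729 by edgeR) and -0.02 (-1.13 to 1.09, FDR 0.991). A genotype difference of F2rl1 was not detectable at this depth.

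**Figure D2:**
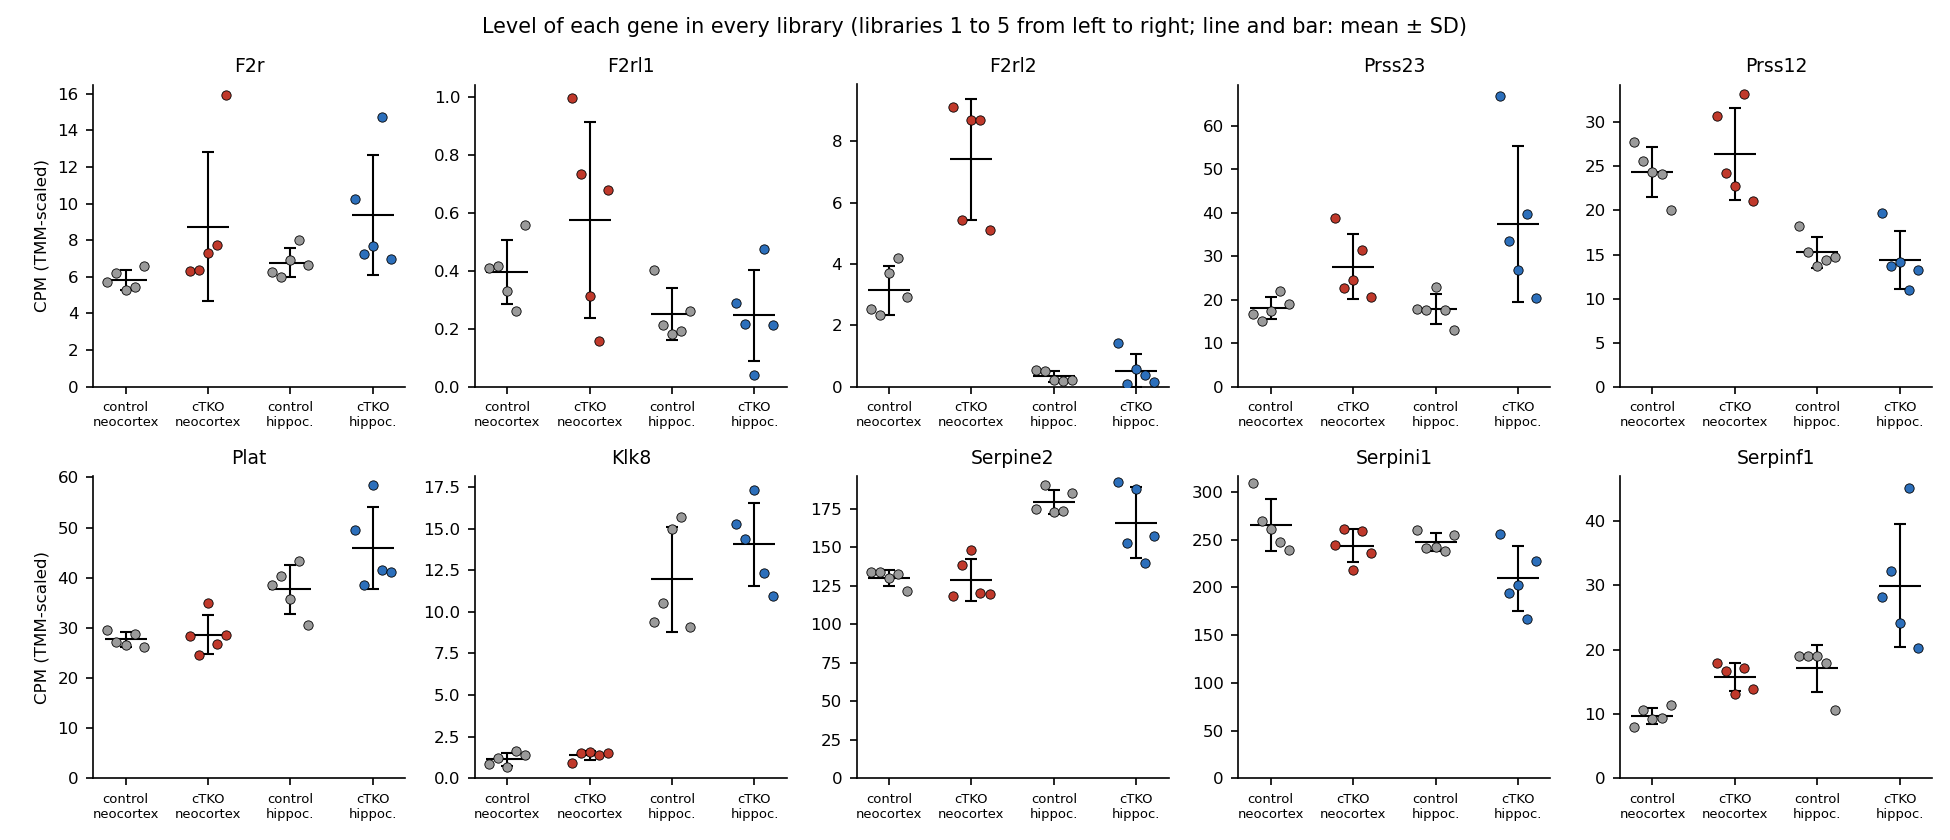
Level in CPM (linear axes from 0) of the 10 genes in the 20 libraries, with grey points for controls, red for the cTKO neocortex and blue for the cTKO hippocampus, and with the mean and SD of 5 libraries as line and bar (bars end at 0). In the cTKO neocortex all F2rl2 and Serpinf1 points lie above the controls, and F2r is set apart by library 5 (15.9 CPM) and, in the hippocampus, by library 4 (14.7 CPM).

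In the hippocampus, Prss23 and Serpinf1 had the largest differences of these genes, and neither passed the quasi-likelihood test. Prss23 was at 66.8, 33.5, 26.8, 39.8 and 20.4 CPM in cTKO libraries and at 17.9, 17.7, 23.0, 17.6 and 13.1 CPM in controls. Libraries 1 to 4 exceeded every control, and library 5 was under the highest of them. The log2 fold change was 1.07 (standard error 0.266, 95% interval 0.49 to 1.65, FDR 0.118 by edgeR), with a permutation p of 0.0159 (exact, two-sided). Serpinf1 was at 28.3, 32.2, 24.1, 45.2 and 20.2 CPM in cTKO libraries and at 19.04, 18.97, 19.07, 17.9 and 10.6 CPM in controls. Its groups did not overlap, which held upward in 1.76% of genes tested, with a permutation p of 0.00794 (exact, two-sided) and a log2 fold change of 0.81 (standard error 0.213, 95% interval 0.35 to 1.27, FDR 0.138 by edgeR). Library 4, the highest, was the library with embryonic transcripts. Without it, the mean of the other 4 was 26.2 ± 5.17 CPM (SD, n = 4), still above all controls, and the log2 fold change was 0.61 (standard error 0.179, FDR 0.193).

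No gene of the 8 tested passed in the hippocampus, where 0.489% of 13702 genes did in either direction and 0.314% were called higher. The count was also 0 without library 4. By an unadjusted p below 0.05 in the same edgeR fit, F2r, Plat, Prss23 and Serpinf1 were higher and Serpini1 lower, beside 6.13% of all genes higher and 5.88% lower. By edgeR's exact test, which called 1.88% of genes, 2 of the 8 passed, Prss23 with an FDR of 0.00752 and Serpinf1 with one of 0.0176, and the same 2 passed in the likelihood ratio test, where 1.89% did, and in DESeq2 at 0.0375 and 0.0116, where 2.42% did. Both also passed the quasi-likelihood test in 1 fit of all 20 libraries (Prss23 FDR 0.0229). Of the 10 fits of the hippocampus that left out a library, Prss23 passed in that without cTKO library 5 (FDR 0.0326). Plat was at 49.4, 38.5, 58.6, 41.6 and 41.1 CPM in cTKO and at 38.5, 40.3, 35.8, 43.4 and 30.5 CPM in control libraries, with overlapping groups and a log2 fold change of 0.29 (FDR 0.369). Serpini1 was at 256, 195, 203, 167 and 228 CPM in cTKO and between 239 and 261 CPM in control libraries, and its log2 fold change of -0.23 (FDR 0.349) was -0.17 without library 4, its lowest.

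F2rl2 was near the limit of detection in the hippocampus. Its counts were 35, 2, 14, 8 and 4 in cTKO libraries 1 to 5 and 11, 12, 5, 4 and 4 in controls, and it did not pass the filter. Fitted without a filter its log2 fold change was 0.64 (standard error 0.630, 95% interval -0.71 to 1.995, FDR 0.727 by edgeR), which spans the value found in the neocortex. F2r was at 10.3, 7.23, 7.66, 14.7 and 6.96 CPM in cTKO and between 5.995 and 8.01 CPM in control libraries, so library 4 was again the highest. Its log2 fold change of 0.47 (FDR 0.369) was 0.24 without library 4 (FDR 0.542).

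The difference between the regions' genotype effects was tested as an interaction over all 20 libraries. None of the 9 genes tested passed, beside 0.0564% of 14192 genes, none had an unadjusted p below 0.05, as 3.75% of all genes did, and DESeq2 and edgeR's likelihood ratio test also called 0 of the 9, beside 0.184% and 0.183% of all genes. The difference, hippocampus minus neocortex, was 0.45 for Prss23 (95% interval -0.25 to 1.15), 0.11 for Serpinf1 (-0.44 to 0.65) and -0.61 for F2rl2 (-1.98 to 0.76) on the log2 scale, all with an FDR of 0.9999 by edgeR. F2rl2 passed the filter on low counts through the neocortex, and its hippocampal levels rested on 2 to 35 counts. The rise of F2rl2 and Serpinf1 in the neocortex is therefore not shown to differ from the hippocampus.

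**Figure D3:**
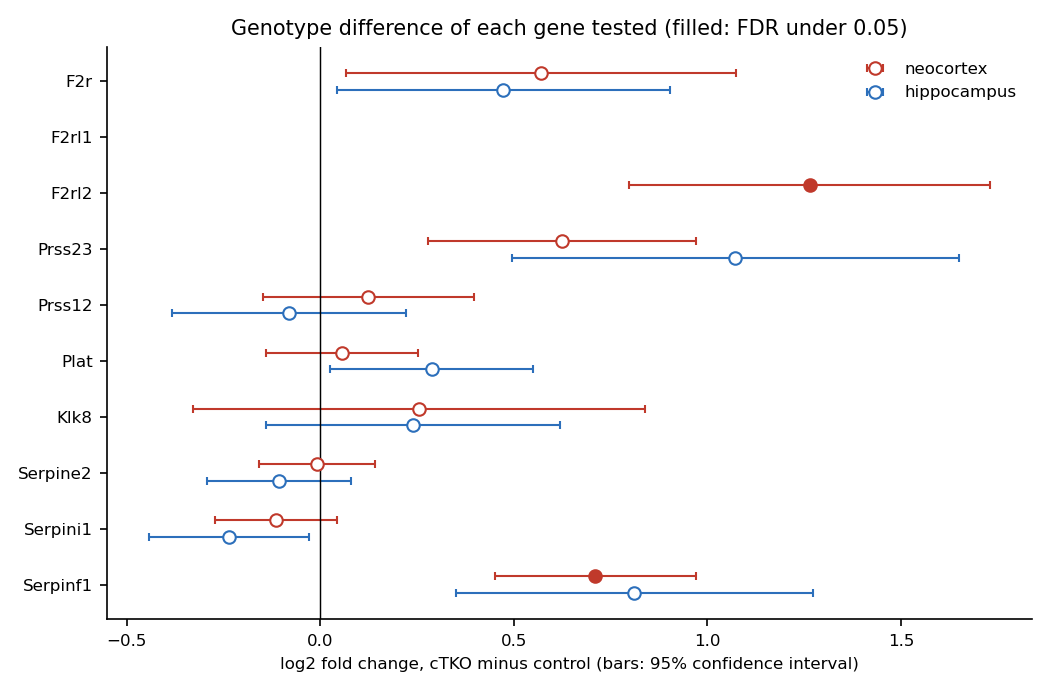
Log2 fold change of cTKO against control for each gene tested in the neocortex (red) and hippocampus (blue), with 95% intervals from edgeR and filled points for an FDR under 0.05. F2rl2 (1.26) and Serpinf1 (0.71) are filled in the neocortex, and no point is filled in the hippocampus.

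Some markers of other cells differed between the genotypes at an unadjusted p below 0.05 (edgeR quasi-likelihood test). In the neocortex 5 of 6 markers of meningeal fibroblasts were higher at an unadjusted p below 0.05, none with an FDR under 0.05, and their summed level ranged from 51.7 to 82.7 CPM in controls and from 74.6 to 101.3 CPM in the 4 cTKO libraries other than library 5, which had 322 CPM. Of the 5 pericyte markers and the 6 endothelial markers, 0 passed that p in the neocortex. In the hippocampus 1 fibroblast marker was higher and 1 lower at that p, and 1 endothelial marker was lower. Gfap, the astrocyte filament, was highest in library 4 of both cTKO groups, at 503 and 3076 CPM. Controls ranged from 76.5 to 149 CPM and from 333 to 557 CPM. Of the 6 astrocyte markers, Gfap was the 1 higher at that p in each region, and Gjb6 was the 1 lower. Log2 fold changes were 0.96 (neocortex) and 1.58 (hippocampus) for Gfap, beside -0.22 and -0.35 for Gjb6. The medians of the 6 markers were -0.09 and -0.07, and none had an FDR under 0.05. In the hippocampus the 5 choroid plexus markers together ranged from 75.5 to 2684 CPM in controls and from 112 to 598 CPM in cTKO libraries. At an unadjusted p below 0.05, 3 of them were lower, none with an FDR under 0.05. Lists for excitatory neurons, interneurons, astrocytes, oligodendrocytes and their precursors, microglia, neocortical layers, dentate gyrus and striatum each had at most 2 markers past that p in a region, and 1 striatal marker passed the FDR in the hippocampus. The part of these cells in the levels of Serpinf1, Prss23 and F2rl2 was not tested.

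The genes beside the members are given with their values, since no source used here gives the strand option of the counting. Iqgap2, a scaffold protein of the cytoskeleton whose intron holds F2rl2, was at 18.5, 36.9, 25.5, 34.97 and 45.8 CPM in the cTKO neocortex and between 36.0 and 46.4 CPM in controls. Its log2 fold change was -0.35 (FDR 0.545). Counts over exons do not measure intronic reads, and the part of such reads in the level of F2rl2 was not tested. Library 1 of both cTKO groups was lowest in Iqgap2 and highest in F2rl2 and Prss23, and whether a number marks the same mouse in both regions is not stated. Serpinf2, an inhibitor of plasmin next to Serpinf1, was at most 0.278 CPM in every neocortical library. In the cTKO hippocampus it was at 6.17, 1.26, 0.412, 7.29 and 0.382 CPM, beside 0.432 to 0.813 CPM in controls, and it was too low to be tested. Klk7, downstream of Klk8, was at 2.67 CPM in library 1 of the cTKO hippocampus and at 0.362 to 0.659 CPM in the other 9 hippocampal libraries. Prss12 shares 157 exonic bases with Gm35065, which has no row in the counts.

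**Figure D4:**
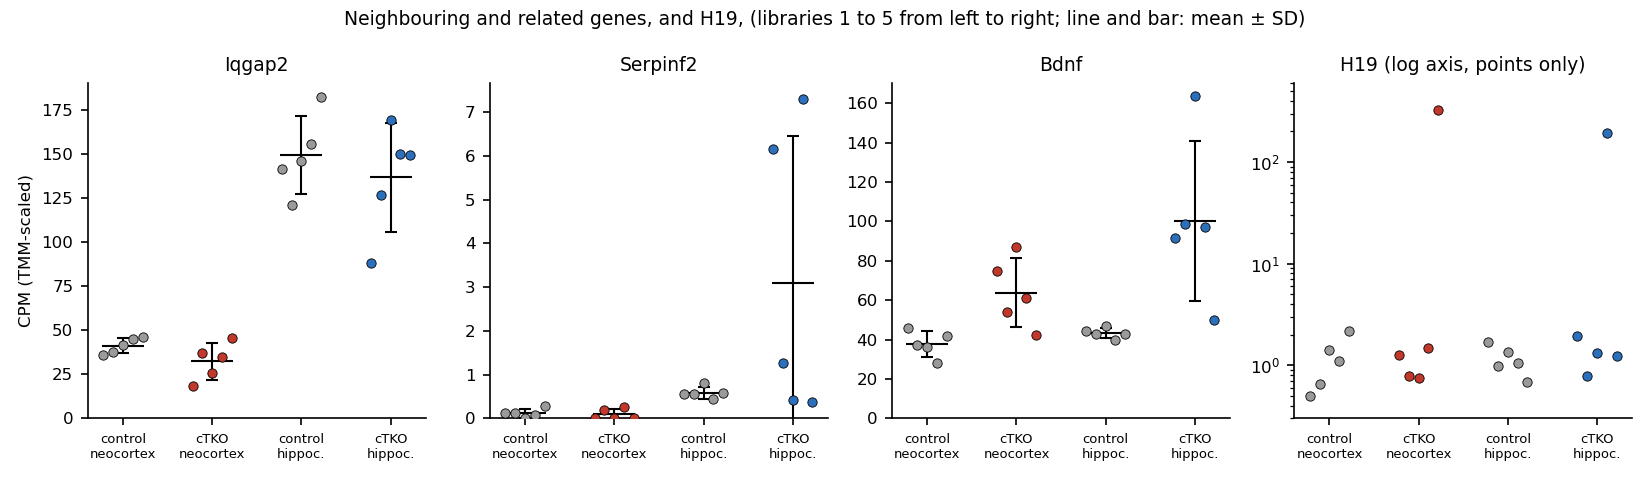
Level in CPM of Iqgap2, Serpinf2, Bdnf and H19 in the 20 libraries, with linear axes from 0 except for H19 (log axis), and with the mean and SD of 5 libraries for the first 3 genes (bars end at 0). Iqgap2 was lowest in cTKO library 1 of both regions (18.5 and 88.4 CPM), Serpinf2 was highest in cTKO hippocampal libraries 1 and 4, and H19 was above 100 CPM only in cTKO neocortex 5 and cTKO hippocampus 4.

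Other genes of extracellular proteolysis were read from 6 lists with 81 genes in all. Of these, 53 were tested in the neocortex and 0 passed the quasi-likelihood test, with 11 higher and 1 lower at an unadjusted p below 0.05, where 5.57% and 4.86% of all genes were. The 11 include Prss22, which passed the filter on low counts through the cTKO group. They also include Serpinh1, whose highest level was in cTKO library 5, with embryonic transcripts. In the hippocampus 49 were tested and 1 passed, beside 0.489% of all genes, with 5 higher and 5 lower at that p, where 6.13% and 5.88% of all genes were. The median log2 fold change of the tested genes was 0.02 in the neocortex, beside 0.0090 over all genes, and 0.0073 in the hippocampus, beside 0.0049. F2, which encodes prothrombin, had at most 4 counts in any library, plasminogen (Plg) at most 3, and F2rl3, the remaining receptor of the family, at most 3. All 6 tested genes of receptor signalling had p values above 0.05 in both regions, and Gnaq, the G protein subunit with the highest level per length among them (45.4 ± 1.40 CPM per kb in control neocortex, SD, n = 5), had log2 fold changes of -0.04 and -0.01.

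Among plasminogen and coagulation genes the highest per length was F3, tissue factor, at 20.1 ± 2.27 CPM per kb in the control neocortex (SD, n = 5), with log2 fold changes of -0.20 (FDR 0.542) and -0.28 (FDR 0.229) in neocortex and hippocampus. Of the 14 genes, 6 were tested in the neocortex with 2 higher at an unadjusted p below 0.05, and 5 in the hippocampus with 2 lower. Of 25 other S1 and related serine proteases, 4 of the 14 tested were higher at that p in the neocortex, and 1 of 11 was lower in the hippocampus. The 4 include Prss22, whose test is no support for a difference, for the reason given below. Htra1, a secreted protease, led the 25 genes at 44.5 ± 6.10 CPM per kb (SD, n = 5). Prss22 and C1ra were called there by edgeR's exact and likelihood ratio tests and by DESeq2, which called 1.18%, 1.21% and 1.6% of genes, and not by the quasi-likelihood test.

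Prss22, a secreted tryptase, was at 3.30, 1.37, 1.81, 2.004 and 1.43 CPM in the cTKO neocortex and at 0.944, 0.775, 1.16, 0.850 and 0.347 CPM in controls, with no overlap. Its log2 fold change was 1.30 (standard error 0.320, FDR 0.135 by the quasi-likelihood test). It passed the filter through the cTKO group, since 1 of the 5 controls exceeded 1 CPM, so the test is no support for a difference, and in the hippocampus it had 0 to 9 counts. C1ra, the complement protease C1r, was at 6.46, 4.16, 2.56, 5.91 and 3.08 CPM in the cTKO neocortex and between 1.91 and 2.48 CPM in controls, and the log2 fold change was 1.03 (standard error 0.248, FDR 0.128). In the hippocampus its log2 fold change was 0.14 (FDR 0.899).

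Serpins outside the 10 genes and the Kunitz inhibitors gave no call. Of 9 other serpins tested, 2 were higher at an unadjusted p below 0.05 in the neocortex, and in the hippocampus 1 was higher and 1 lower. The 2 include Serpinh1, at 110.5 CPM in cTKO library 5 beside 13.3 to 17.9 CPM in the other 4. Serpina3n, a serpin of reactive astrocytes, was the highest of the other serpins per length and varied widely. It ranged from 14.0 to 143 CPM in the control neocortex and from 14.1 to 174 CPM in the cTKO neocortex. Spint2, an inhibitor of membrane serine proteases with Kunitz domains, led the 5 Kunitz inhibitors at 3.18 ± 0.338 CPM per kb (SD, n = 5), with log2 fold changes of 0.01 and -0.19. Of 14 substrates and receptors, Bdnf was called. Its precursor is a substrate of plasmin.

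Bdnf, brain-derived neurotrophic factor, was at 91.7, 98.6, 164, 97.4 and 50.1 CPM in hippocampal cTKO libraries and between 39.9 and 47.0 CPM in controls, with no overlap. Its log2 fold change was 1.21 (standard error 0.225, FDR 0.0347, edgeR quasi-likelihood test). The neocortical value was 0.76 (standard error 0.170, FDR 0.108), with cTKO libraries at 74.8, 53.9, 86.9, 61.0 and 42.3 CPM beside 28.2 to 45.8 CPM in controls, and DESeq2 and edgeR's exact and likelihood ratio tests called it there with FDRs from 0.00237 to 0.00439. Grin1, the obligatory NMDA receptor subunit and the highest of this list per length (83.3 ± 5.50 CPM per kb, SD, n = 5), had log2 fold changes of 0.01 and 0.07.

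The genes whose log2 CPM, centred on the mean of each region, followed the 3 leading members most closely over the 20 libraries were sought among 13469 genes tested in both regions. For F2rl2 these were Ptprf, a receptor tyrosine phosphatase (Pearson r 0.88, Spearman rho 0.93), Otx1, a transcription factor of deep cortical layers (0.81 and 0.75), and Ptgs1, a cyclooxygenase (0.80 and 0.82). For Prss23 they were the proteasome subunit Psmc2 (0.86 and 0.85), the trafficking adaptor Trak2 (0.86 and 0.70) and Podxl2 (0.85 and 0.77). For Serpinf1 they were Ecm1, an extracellular matrix protein (0.90 and 0.90), Parp3 (0.83 and 0.68) and Aspg (0.82 and 0.74). Ptprf was at 192, 130, 140, 144 and 128.5 CPM in the cTKO neocortex and between 105 and 119 CPM in controls, and Ecm1 was at 12.4, 12.5, 12.4, 15.1 and 13.2 CPM beside 8.10 to 11.1 CPM. None of the 9 passed the quasi-likelihood test in either region. The libraries include both genotypes and pairs of regions that may come from the same mice, so these values describe likeness and carry no test.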

How the data were processed

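Counts per gene in the 20 libraries were used as deposited. The authors pulled down poly-A RNA, sequenced single-end reads, mapped them to mm10 with STAR 2.5.4a and deposited raw counts per gene symbol from HTSeq, whose version and strand setting are not given in the sources used here. Counts by gene do not separate splice forms, so the Kunitz forms of App and Aplp2 were not resolved. Every count column was assigned to a sample by the labels, and 0 were left out.

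The values computed here are as follows. Tested genes exceeded 1 CPM in 5 or more libraries of a fit, TMM scaled the library sizes (factors 0.959 to 1.05), and groups were compared with edgeR 4.0.16 in R 4.3.3 (quasi-likelihood test, all genes, Benjamini-Hochberg FDR under 0.05), in each region for genotype, in controls for region, and in 1 fit of 20 libraries for the interaction. Standard errors were derived from these fits, as the size of the log2 fold change over the square root of the quasi-likelihood F statistic. The 95% intervals use these standard errors and the t distribution. For members, an exact permutation test was run on log2 CPM (prior count 2). Levels per length use the exon union of GENCODE M21, and positions RefSeq GRCm38, the assembly of mm10. Alternatives were edgeR's exact and likelihood ratio tests, DESeq2 1.42.0, a robust fit, DESeq2 size factors, filterByExpr, no filter, 1 fit of 20 libraries for genotype, the replicate number as a block, Xist as a covariate, a prior count of 0.5 and each library left out. The procedures were tested on simulated data. Figures were drawn with matplotlib 3.10.9.

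The members, the 6 related lists and the marker lists were chosen with earlier results of these data known. Named genes are the 10 members, the targeted genes, related genes called by the quasi-likelihood test or by all 3 other tests in a region, the related gene of each list with the highest level per length, genes that overlap or neighbour a member, and the 3 genes most alike F2rl2, Prss23 and Serpinf1. F2, Plg, F2rl3, Serpinh1 and the marker genes were named after their values were seen.

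Total counts of 12169474 to 25331954 set the precision, and the floor of 3 counts is a counting limit alone, because without molecular identifiers PCR copies cannot be told from separate molecules. No pair of libraries looked like 1 library deposited again. By the methods, both regions were collected from 5 mice of each genotype, so p-values of the genotype comparisons within a region measure the spread between these mice. The regional and interaction fits held no term for the mouse and treated both libraries of a mouse as independent. The labels do not say whether a number marks the same mouse in both regions. In controls, libraries of the same number deviated together across regions (correlations 0.115 to 0.348 over 13469 genes), so these numbers were taken to pair the regions. Number 5 was the exception, at 0.115 with its own number and 0.116 with another. The regional values given are from the fit without the replicate block, and the block changed no member's call there.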

Additional observations from a re-analysis of the deposited data

Results flagged for a closer look

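Of 40 groups of 5 libraries (10 genes in 4 groups), 3 had a library set apart from the rest by a gap of more than 0.71 of the group's range, and chance marks about 1 group in 20. F2r in cTKO neocortex library 5 was at 15.9 CPM, beside 6.32 to 7.75 CPM in the other 4. This library held the embryonic transcripts. Klk8 in cTKO neocortex library 1 was at 0.903 CPM, beside 1.37 to 1.56 CPM, a level that rests on 20 counts. Serpinf1 in control hippocampus library 5 was at 10.6 CPM, beside 17.9 to 19.1 CPM.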

How the results depend on the processing

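The 2 members called in the neocortex became 0 in 1 fit of all 20 libraries and 1 (F2rl2) with the replicate block, 3 with DESeq2 and edgeR's exact and likelihood ratio tests, which added Prss23, and 0 to 3 with a library left out, the 3 (F2rl2, Prss23 and Serpinf1) without cTKO library 5. The 0 members called in the hippocampus became 2 (Prss23 and Serpinf1) with the exact test, the likelihood ratio test, DESeq2 and 1 fit of 20 libraries, and 0 to 1 with a library left out. The cause was not tested. A fit with a library left out also holds fewer libraries, and the part of that was not tested either. The 26 genes called in the neocortex became 163 with the exact test, 167 with the likelihood ratio test, 221 with DESeq2, 42 with no filter and 12 with the replicate block, and 7 to 133 with a library left out. The 67 in the hippocampus became 258, 259 and 331 with those 3 tests and 189 in 1 fit of 20 libraries, and 15 to 149 with a library left out.

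The replicate numbers were not taken to pair the genotypes or the regions of cTKO mice, since same-number libraries did not all deviate together. The correlations were 0.216, 0.210, 0.185, 0.0134 and 0.0388 for numbers 1 to 5 between genotypes in the neocortex, where numbers 1 to 3 correlated best with their own. They ranged from -0.158 to 0.140 in the hippocampus and from -0.0912 to 0.375 between regions of cTKO mice. Library 5 of the cTKO neocortex, which held embryonic transcripts, correlated at 0.593 with a cTKO hippocampal library of another number. With the block, Serpinf1 in the neocortex had an FDR of 0.0823, and no other member's call changed. The regional calls of members stayed at 5 to 6 with a library left out. F2rl2 fell outside the filter there with any control neocortical library left out.

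Directions turned only for differences near 0. With a library left out, the log2 fold change in the neocortex ranged from -0.0251 to 0.11 for Plat and from -0.0607 to 0.0222 for Serpine2, and the regional difference of Prss23 from -0.13 to 0.0761, with 0.0016 under no filter. The interaction ranged from -0.32 to 0.21 for F2r, from -0.16 to 0.11 for Klk8 and from -0.10 to 0.22 for Serpinf1. That of Klk8 was 0.00047 with filterByExpr, 0.024 with the replicate block and 0.057 without both libraries with embryonic transcripts, and that of Serpinf1 was -0.14 without them, an alternative chosen after seeing the data. The 6 member tests with an exact permutation p under 0.05 stayed at 6 with a prior count of 0.5 and with DESeq2 size factors. Depth limits F2rl1 in both regions and F2rl2 in the hippocampus.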

Other observations

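Further proteases and serpins followed the markers of other tissue in single libraries. In the 2 libraries with embryonic transcripts, Serpinh1 was at 110.5 and 79.2 CPM, beside 13.3 to 17.9 and 17.3 to 23.4 CPM in the other 4 cTKO libraries of the region. St14, an epithelial membrane serine protease that can activate the receptor encoded by F2rl1, was at 5.41 and 2.84 CPM there, beside 0.271 to 0.687 and 0.412 to 1.36 CPM. F5, coagulation factor V, was at 8.99, 10.7, 42.8, 6.57 and 2.57 CPM in control hippocampal libraries 1 to 5, and library 3 was also the highest in summed choroid plexus markers (2684 CPM). In the cTKO hippocampus F5 was between 2.06 and 10.4 CPM, and the log2 fold change was -1.41 (edgeR standard error 0.630, FDR 0.395), and in the neocortex it was between 0.812 and 1.76 CPM in every library. The genes of this paragraph were named after their values were seen, and the part of that tissue in their levels was not tested.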
